A study of Mus musculus with 12 samples.

Results

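Distal chromosome 4 of the mouse carries a dense run of C2H2 zinc finger genes, and 31 protein-coding genes of a 5 Mb interval were described here, of 43346 gene IDs measured. Members were taken by position and name: genes of the interval in GENCODE M21 (build GRCm38), the first starting at 144.106 Mb and the last at 148.643 Mb, whose symbol is Rex2, Zfp with a number or Gm with a number. RNA was sequenced from mouse embryonic stem cells (ES cells) in 12 libraries, 3 for each of 4 strains. B6 is C57BL/6J and D2 is DBA/2J, both inbred parental strains. B6-13D2, labelled B6.D2-(rs30079041-rs51756099)/Bakr or QJ, is a congenic line with a D2 segment of chromosome 13 on the B6 background. D2-13B6, labelled D2.B6-(rs29224292-rs13469455)/Bakr or XE, is the reciprocal line, with the B6 segment on the D2 background (the series text ends this segment at rs51756099). All cells grew in serum medium with LIF, the MEK inhibitor PD0325901 at 1 µM and the GSK3 inhibitor CHIR99021 at 3 µM. Each strain is represented by 1 cell line per the labels' protocols, so a strain and a line cannot be told apart, although the titles give B6 replicate 3 and the D2 libraries other line names than the remaining labels do. Titles call the libraries technical replicates while the protocol describes separate cultures, so p-values measure the spread between these libraries, which may be technical. The interval of these genes lies on chromosome 4, outside the exchanged segment.

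C2H2 zinc fingers are short loops in which a pair of cysteines and a pair of histidines hold a zinc ion, and arrays of them read DNA sequence. Many mammalian zinc finger genes also encode a KRAB domain, which binds the corepressor Trim28 and through it recruits the H3K9 methyltransferase Setdb1, HP1 proteins and DNA methylation. In ES cells such factors are known for silencing retrotransposons, and they lie in clusters that expanded by tandem duplication and differ between mouse strains. Whether each member encodes a KRAB domain was not analysed here.

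Coding sequences of GENCODE M21 transcripts were searched for the finger pattern (C, 2 residues, C, 12 residues, H, 3 or 4 residues, H). It was found in 20 of the 31 members, from 2 fingers in Zfp993 to 20 in Gm13212, and in none of the other 11, which are all Gm genes. The longest annotated coding sequences of Zfp993 (940 bases), Zfp978 (1007) and Zfp986 (1204) are not a whole number of codons. They may be incomplete, and the counts of 2, 3 and 5 fingers in these genes may be too low. Zfp985 had 10 fingers, Rex2 15, Zfp600 17 and Zfp933 12. One finger from the middle of each array is shown for 4 members so that the repeats can be compared. The codons of the zinc-binding cysteines and histidines are in capitals (GRCm38, plus strand except Zfp933 on the minus strand).
Rex2: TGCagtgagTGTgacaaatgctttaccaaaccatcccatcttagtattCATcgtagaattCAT
Zfp600: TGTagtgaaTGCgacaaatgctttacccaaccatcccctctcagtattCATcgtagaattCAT
Zfp985: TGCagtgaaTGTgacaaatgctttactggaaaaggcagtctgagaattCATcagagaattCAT
Zfp933: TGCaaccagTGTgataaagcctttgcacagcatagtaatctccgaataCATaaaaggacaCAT
The Rex2 finger lies at chr4:147058401-147058463, that of Zfp600 at chr4:146196192-146196254, that of Zfp985 at chr4:147583814-147583876 and that of Zfp933 at chr4:147826175-147826237. Over the 63 bases, the Rex2 and Zfp600 fingers were 90.5% identical, and the Zfp933 finger was 58.7% identical to that of Rex2. The Zfp985 finger was 77.8% identical to that of Rex2 and 76.2% to 95.2% identical to those of the 17 remaining finger genes other than Zfp933, to whose finger it was 60.3% identical.

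Promoters of 16 members, from 250 bases before to 50 after the start site, were found in the RefSeq table (GRCm38.p6); 13 of them start within 100 bases of the GENCODE start. A run of 10 bases, ATTGGGCGGG, which holds GGGCGG and overlaps a CCAAT box read on the other strand, was present in 10 of these 16 promoters and in 0.119% of all 32851 promoters of that table, counting both strands. This run was chosen after the sequences had been seen. Its first 8 bases, ATTGGGCG, were present in 12 of the 16 and in 0.557% of all promoters. CCAAT was in 13 of 16 against 37.4% of all, GGGCGG in 10 against 35.7%, TATAAA in 0 against 13.6% and AAGATGGCG in 0 against 1.40%. The promoters of Rex2, Zfp985, Zfp987 and Zfp933 are shown because these genes differed in how they varied between groups, with the run, or in Zfp987 its first 8 bases alone, in capitals.
Rex2: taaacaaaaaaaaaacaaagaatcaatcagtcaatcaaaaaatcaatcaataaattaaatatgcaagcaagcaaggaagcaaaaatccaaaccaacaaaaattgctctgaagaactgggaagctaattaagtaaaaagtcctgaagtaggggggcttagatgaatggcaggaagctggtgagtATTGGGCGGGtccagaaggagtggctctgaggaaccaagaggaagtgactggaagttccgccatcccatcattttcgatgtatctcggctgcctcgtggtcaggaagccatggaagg
Zfp985: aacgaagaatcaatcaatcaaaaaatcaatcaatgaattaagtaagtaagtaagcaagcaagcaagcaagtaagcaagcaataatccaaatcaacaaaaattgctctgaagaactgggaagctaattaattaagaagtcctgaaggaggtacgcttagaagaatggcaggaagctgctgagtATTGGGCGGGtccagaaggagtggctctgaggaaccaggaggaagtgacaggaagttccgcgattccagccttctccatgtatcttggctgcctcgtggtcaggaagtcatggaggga
Zfp987: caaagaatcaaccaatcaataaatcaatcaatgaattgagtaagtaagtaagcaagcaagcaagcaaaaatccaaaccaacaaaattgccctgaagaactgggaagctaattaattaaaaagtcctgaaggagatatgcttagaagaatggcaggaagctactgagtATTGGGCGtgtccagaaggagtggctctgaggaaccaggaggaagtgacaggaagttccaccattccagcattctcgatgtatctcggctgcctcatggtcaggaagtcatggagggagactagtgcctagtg
Zfp933: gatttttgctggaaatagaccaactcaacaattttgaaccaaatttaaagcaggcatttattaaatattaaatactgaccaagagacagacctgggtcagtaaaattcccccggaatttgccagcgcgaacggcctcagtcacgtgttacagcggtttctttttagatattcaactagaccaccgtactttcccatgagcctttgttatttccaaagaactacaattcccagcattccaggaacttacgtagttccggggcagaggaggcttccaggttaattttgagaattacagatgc
They lie at chr4:147021600-147021899, chr4:147553027-147553326, chr4:146097062-146097361 and, on the minus strand, chr4:147848369-147848668. Over aligned bases the Zfp600 promoter was 100% identical to that of Rex2 (299 bases), that of Zfp979 98.6%, that of Zfp985 90.5% (283 bases) and that of Zfp987 88.4%. The Zfp933 promoter holds neither run and could not be aligned to the others. These are matches of letters, not measured binding sites. The promoter of Zfp534 also holds the first 8 bases of the run alone. Its log2 fold change in D2 versus B6 was -2.66, against -0.12 for Zfp987. A link between these letters and the levels was not tested.

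Sequence sharing sets how far each member can be measured alone. The deposited values are expected counts from EMASE, a method that divides reads fitting several genes among them, and reads were 150 bases long. Of the 31 members, 21 shared at least 1 exact run of 150 bases with another annotated gene. Members that shared at least 5% of the smaller gene's runs formed 4 families: Rex2 with Zfp600, Zfp980, Zfp978 and Zfp979 (5 genes), Zfp534 with Zfp986, Zfp987, Zfp988, Zfp989 and Gm21411 (6 genes), Zfp992 with Zfp991 and Zfp993 (3 genes), and Zfp984 with Gm13212 (2 genes). Rex2 shared 60.7% of its runs, 54.8% with Zfp600, and its level and that of each other family member is uncertain through divided reads. Of the 20 finger genes, 3 shared no such run: Zfp985, Zfp982 and Zfp933. Their values were whole numbers in 10, 12 and 12 of 12 libraries to within 1e-06, whereas the 16 family members had a whole value in 0 libraries. Zfp984 also overlaps an exon of Gm20707 on the same strand, so counting by strand would not separate them. Whether counting used the strand is not given in the sources used here.

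Libraries held 22184196 to 36411799 expected counts, of which 0.0845% to 0.217% fell on the members. Levels are given as CPM, counts scaled to a common library total with TMM factors, ± SD with n = 3. Genes were tested with edgeR's quasi-likelihood test over all genes, and a gene with an adjusted p (Benjamini-Hochberg) below 0.05 is said to be called. Of the 31 members, 24 passed the filter on low counts, among them all 20 finger genes and Gm13128, Gm13119, Gm21411 and Gm16503, and each of the 24 passed it in all 4 groups. The other 7 had at most 5 counts in any library. At the interval's edges, the first gene inside, Gm13102 at 144.106 Mb, had at most 0.465 counts, and Gm13101 at 143.965 Mb, the nearest outside that meets the name rule, at most 13.4. At the distal edge Gm572 at 148.643 Mb had at most 5 counts and the nearest gene outside that meets the name rule, Gm13090 at 151.09 Mb, at most 2.

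ES cell markers were present in every library, and their share of the RNA differed between groups. The 8 ES cell markers (Pou5f1, Sox2, Nanog, Esrrb, Klf4, Zfp42, Tfcp2l1 and Tdgf1) summed to 4156 to 4337 CPM in B6, 4732 to 4876 in B6-13D2, 3444 to 3456 in D2-13B6 and 2892 to 2926 in D2. The 8 fibroblast markers, led by Col1a1, summed to 9356 to 10162, 3084 to 3172, 7711 to 8035 and 14135 to 16920 CPM in the same order. Of them, 8 of 8 were called higher in D2 than in B6, 8 of 8 lower in B6-13D2 than in B6 and 7 of 8 lower in D2-13B6 than in D2, and 0 were at 0 in every library. In bulk RNA, fewer cells of a type and less RNA per cell cannot be told apart. Because of this, libraries were also scaled to the summed ES cell markers, an alternative added after these sums had been seen. The 8 ES cell markers did not move alike. In D2 versus B6, 7 were called lower, and log2 fold changes ran from -0.13 (Zfp42, not called) to -0.98 (Tfcp2l1). In B6-13D2 versus B6, 7 were called higher and 1 lower (Klf4, -0.38). Scaled to their sum, 5 of the 8 were called higher and 3 lower in D2 versus B6. That scaling moved the median log2 fold change of all genes by 0.54 in D2 versus B6, by -0.19 in B6-13D2 versus B6 and by -0.25 in D2-13B6 versus D2. Its values stand beside the counts of called members in each contrast. The 7 markers of two-cell-like cells, a rare state of ES cell cultures, moved as well. They summed to 41.3 to 43.6 CPM in B6, 36.6 to 37.6 in B6-13D2, 27.7 to 31.3 in D2-13B6 and 158 to 192 in D2, with 0 at 0 in every library. In D2 versus B6, 7 of 7 were called higher (median log2 fold change 1.63), in D2-13B6 versus D2 7 of 7 lower (median -2.76) and in B6-13D2 versus B6 1 of 7 lower. Between segment alleles, averaged over backgrounds, 7 of 7 were called higher with the D2 allele (median 1.30), although their median was -0.02 in B6-13D2 versus B6. The 7 primitive endoderm markers summed to 32.2 to 33.4, 15.1 to 15.7, 36.4 to 38.2 and 41.0 to 43.7 CPM in B6, B6-13D2, D2-13B6 and D2. The 5 trophoblast markers, led by Tfap2c, summed to 55.0 to 64.1, 82.8 to 85.9, 25.5 to 26.9 and 45.7 to 48.4 CPM, and the 3 neural markers to 40.6 to 44.9, 33.8 to 35.4, 42.9 to 44.3 and 53.6 to 53.9 CPM in that order. Markers within these lists went different ways. With the D2 background, Tfap2c (-1.43) and Eomes (-1.38) were called lower and 2 trophoblast markers higher, Cdx2 by 1.93. In D2 versus B6, 3 primitive endoderm markers were called higher, Dab2 among them, and Gata4 lower (-1.05). In B6-13D2 versus B6, 2 neural markers were called lower and Sox1 higher (1.22). The part of these markers in the results was not tested.

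The finger genes together were highest on the B6 background. Their 20 levels summed to 1752 ± 44.2 CPM in B6, 2065 ± 44.5 in B6-13D2, 1194 ± 20.9 in D2-13B6 and 899 ± 90.3 in D2. The D2 libraries had 834, 861 and 1002 CPM, so D2 replicate 3 stood above the other D2 libraries, and no library of one group reached into another. Per 100 CPM of ES cell markers the sums were 41.6 ± 1.27 in B6, 43.1 ± 1.45 in B6-13D2, 34.6 ± 0.553 in D2-13B6 and 30.9 ± 2.94 in D2. On that scale the libraries of B6 and B6-13D2 overlapped, as did those of D2-13B6 (34.1 to 35.2) and D2 (28.7 to 34.2), while both B6-background groups stayed above both D2-background groups.

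**Figure D1:**
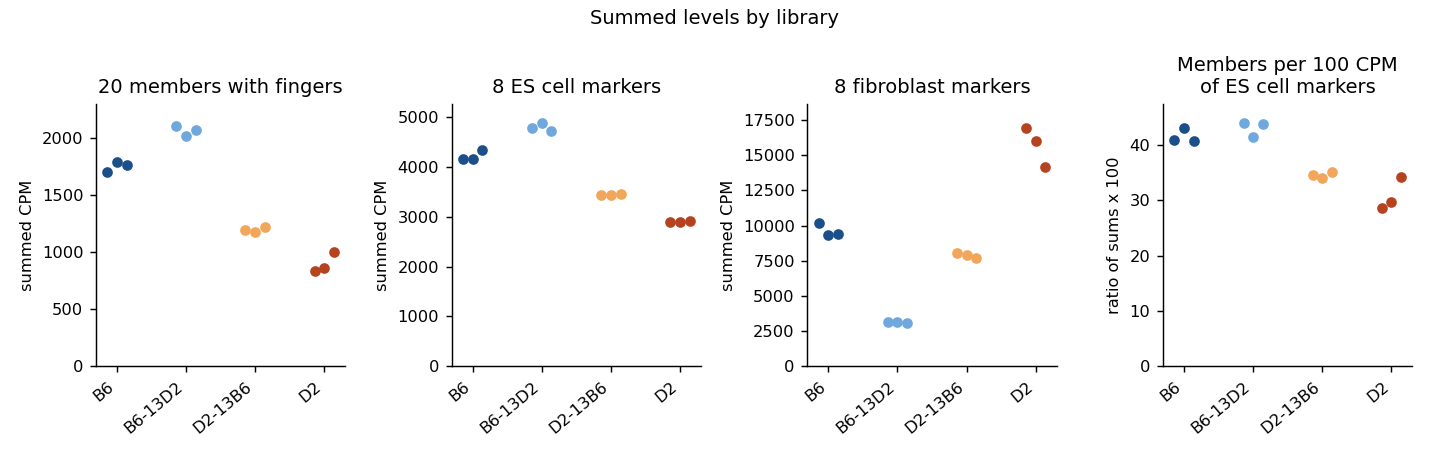
Summed levels by library (points, 3 per group) for the 20 members with fingers, the 8 ES cell markers and the 8 fibroblast markers in CPM, and the members' sum per 100 CPM of ES cell markers. The finger genes run from 834 CPM in a D2 library to 2107 in a B6-13D2 library, and the fibroblast markers are lowest in B6-13D2 (3084 to 3172 CPM) and highest in D2 (14135 to 16920 CPM).

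Between the parental strains, most members were lower in D2. Of 24 tested members 19 were called, 16 lower and 3 higher in D2 (18 lower and 1 higher without B6 replicate 1, 19 lower and 1 higher without D2 replicate 3), where 60.0% of all 17148 tested genes were called (30.3% lower and 29.8% higher). The median log2 fold change was -1.0 over the 24 members, 0.04 over the 30 tested protein-coding genes of the same interval that are not members, -0.15 over 331 other Zfp genes and 0.01 over all genes. Scaled to ES markers, 23 of 24 were called, 15 lower and 8 higher, against 79.5% of all genes called (6.64% lower and 72.9% higher), with a median of -0.47 for members and 0.55 for all genes.

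The background contrast averages D2 minus B6 over both segment alleles, so each side holds 6 libraries. It called 22 of 24 members, 20 lower and 2 higher with the D2 background, where 73.5% of all genes were called (34.7% lower and 38.7% higher). The members' median log2 fold change was -0.82, that of the interval's other genes 0.16, that of other Zfp genes -0.09 and that of all genes 0.03. Of the 3 contrasts that split the design (background, segment allele, congenic against parental), background had the largest absolute value in 16 of 24 members and in 49.7% of all genes (19 of 24 and 68.7% with ES marker scaling). With ES marker scaling 21 were called, 14 lower and 7 higher, against 85.3% of all genes (8.52% lower and 76.8% higher), and the medians were -0.32 for members and 0.53 for all genes.

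The contrast of segment alleles (D2 minus B6 allele, averaged over backgrounds) was called for 14 of 24 members, 10 lower and 4 higher, where 43.9% of all genes were called (27.3% lower and 16.5% higher). The members' median was -0.10 and that of all genes -0.04, with -0.07 for the interval's other genes and -0.09 for other Zfp genes. The split depended on the scaling: with RLE size factors 8 were lower and 6 higher, where 43.8% of all genes were called (22.9% lower and 20.9% higher). ES marker scaling also gave 8 lower and 6 higher, where 43.1% were called (22.5% lower and 20.6% higher). Of the 14, 3 passed an absolute log2 fold change of 1, Zfp985, Gm13128 and Gm13119, against 2.36% of all genes. The members' median was close to that of other Zfp genes, while these 3 lay far from it.

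Zfp985 followed the segment allele on both backgrounds. It had 59.3, 61.5 and 60.2 CPM in B6, 24.9, 23.5 and 24.7 in B6-13D2, 46.8, 47.3 and 45.4 in D2-13B6 and 13.9, 13.2 and 13.6 in D2. The 6 libraries with the D2 segment lay below the 6 with the B6 segment with no overlap, which held for no other tested member and for 2.81% of all tested genes, and within each allele the B6 background was higher. The segment contrast was -1.54 on the log2 scale (SE 0.032, edgeR adjusted p 1.01e-15), a 2.92-fold lower level with the D2 allele, and the background contrast was -0.61 (SE 0.033). On a scale per kb of exon, mean levels were 21 CPM per kb in B6 and 4.72 in D2. With ES marker scaling the segment contrast was -1.51 and the background contrast -0.11, both called. Zfp985 lies at chr4:147553277-147585198 and shared no run of 150 bases with another gene.

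Zfp982, at chr4:147492417-147513486, was higher in both congenic lines. It had 8.26, 7.55 and 7.72 CPM in B6, 23.2, 19.8 and 21 in B6-13D2, 13.8, 14.3 and 13.1 in D2-13B6 and 5.87, 6.84 and 9.97 in D2. Every congenic library lay above every parental library, B6 and D2 overlapped, and D2 replicate 3 was the highest parental library. The log2 fold change was 1.44 in B6-13D2 versus B6 (SE 0.121, edgeR adjusted p 1.14e-08) and 0.88 in D2-13B6 versus D2 (SE 0.123, adjusted p 7.51e-06). Congenic minus parental was 1.16 (SE 0.086), and 0.95 with ES marker scaling. D2 versus B6 was -0.07 (SE 0.139) and not called, and was -0.29 and called without D2 replicate 3 and 0.46 and called with ES marker scaling. The background contrast of -0.35 was called, but was 0.15 and not called with ES marker scaling.

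Zfp933, the finger gene at the distal end of the run, showed small differences with TMM scaling. It had 9.18, 9.90 and 8.79 CPM in B6, 7.79, 8.59 and 8.34 in B6-13D2, 7.13, 7.97 and 6.63 in D2-13B6 and 8.45, 7.98 and 8.42 in D2. The groups lay close to each other, with D2 inside the range of B6-13D2. Libraries of D2 and of B6-13D2 lay below those of B6, and libraries of D2-13B6 below those of D2, with no overlap. D2 versus B6 was -0.17 (SE 0.088), B6-13D2 versus B6 -0.17 (SE 0.088) and D2-13B6 versus D2 -0.19 (SE 0.087), and none of these was called, though D2-13B6 versus D2 was -0.26 and called without D2-13B6 replicate 2. All 3 were called with ES marker scaling, at 0.37, -0.36 and -0.43. The background and congenic contrasts, both -0.18 (SE 0.062, edgeR adjusted p 0.016 and 0.017), were called by edgeR but not by DESeq2, and were 0.33 and -0.40 with ES marker scaling, both called.

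**Figure D2:**
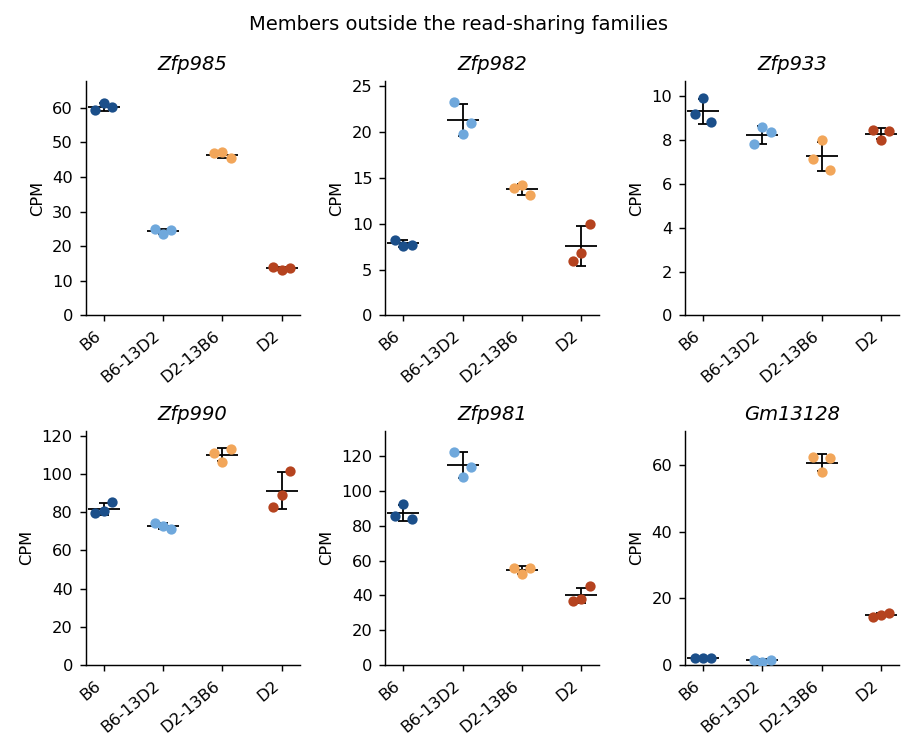
CPM per library (points) with group mean and SD (black) for 6 members outside the read-sharing families, each on a linear axis from 0. Zfp985 is low in both groups with the D2 segment (24.4 and 13.6 CPM on average), Zfp982 is high in both congenic groups (21.3 and 13.7), and Gm13128 averages 60.7 CPM in D2-13B6 against 15.0 in D2.

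In the family of Rex2, the background contrast was the largest in size of the 3 for Rex2, Zfp980, Zfp978 and Zfp979, while for Zfp600 congenic minus parental (0.39) was. Reads are divided among these 5 genes. Rex2 had 184, 196 and 198 CPM in B6, 253, 248 and 250.6 in B6-13D2, 143, 146 and 150.0 in D2-13B6 and 92.5, 97.7 and 124 in D2. Both B6-background groups lay above both D2-background groups, and B6-13D2 above B6. For Rex2 the background contrast was -0.83 (SE 0.049, edgeR adjusted p 4.11e-11), B6-13D2 versus B6 0.38 (SE 0.068) and D2-13B6 versus D2 0.49 (SE 0.070). They were -0.32, 0.20 and 0.24 with ES marker scaling, all called. The segment contrast was -0.05 (SE 0.049) and not called, but was -0.12 and called without D2 replicate 3.

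Zfp600, which shares most with Rex2 and has the same promoter sequence, showed another order of groups. It had 106, 112 and 122 CPM in B6, 157, 155 and 158 in B6-13D2, 134, 129 and 139 in D2-13B6 and 103, 104 and 115 in D2. B6 and D2 overlapped, and B6-13D2 was the highest group. On the log2 scale the background contrast was -0.15 (SE 0.035), D2 versus B6 -0.08 (SE 0.050, not called, but -0.13 and called without B6 replicate 1 or D2 replicate 3), B6-13D2 versus B6 0.47 (SE 0.049) and D2-13B6 versus D2 0.32 (SE 0.049). Scaled to ES markers, the background contrast of Zfp600 was 0.35 and D2 versus B6 0.45, both called, B6-13D2 versus B6 was 0.28 and called, and D2-13B6 versus D2 was 0.08 and not called. Its direction between backgrounds thus depends on the scaling. The segment contrast of Zfp600, 0.07, was not called, but was with RLE size factors (0.10), DESeq2, a mean CPM minimum of 1, the replicate block or ES marker scaling, and without B6 replicate 3.

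Zfp980 had the highest level of the family per length on the B6 background, at 64.4 CPM per kb in B6 and 77.5 in B6-13D2, followed by Zfp978 at 49.4 and 59.6. In CPM it had 249, 266 and 259 CPM in B6, 322, 297 and 311 in B6-13D2, 151, 150.0 and 159 in D2-13B6 and 104, 100.3 and 121 in D2. No library of one group reached into another, and the background contrast was -1.14 (SE 0.038). Zfp979, whose RefSeq synonym Ssm1b stands for a strain-specific modifier of transgene methylation, averaged 133 ± 5.44 CPM in B6, 130.3 ± 3.41 in B6-13D2, 84.9 ± 4.05 in D2-13B6 and 66.1 ± 5.84 in D2. Its background contrast was -0.82 (SE 0.037). Zfp978 averaged 63.6 ± 4.58 CPM in B6, 76.7 ± 3.90 in B6-13D2, 47.2 ± 1.31 in D2-13B6 and 32.0 ± 5.87 in D2, with a background contrast of -0.85 (SE 0.059). The background contrasts of Zfp980, Zfp979 and Zfp978 were -0.63, -0.31 and -0.34 with ES marker scaling, all called.

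Summing the family leaves out the division of reads among its 5 genes. The sum was 761 ± 27.0 CPM in B6, 925 ± 17.1 in B6-13D2, 566 ± 15.7 in D2-13B6 and 418 ± 44.4 in D2. With the family's reads given to 1 row, the background contrast was -0.79 (SE 0.038), the segment contrast -0.08 (SE 0.038) and congenic minus parental 0.36 (SE 0.038). These are values without a call.

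Zfp992 and Zfp993 showed the largest rise in B6-13D2 among the families. Zfp992 had 152, 159 and 146 CPM in B6, 273, 269 and 277 in B6-13D2, 53.4, 50.8 and 52.7 in D2-13B6 and 35.0, 35.3 and 40.5 in D2. The 4 groups did not overlap, and B6-13D2 was highest by a wide margin. B6-13D2 versus B6 was 0.84 (SE 0.044, edgeR adjusted p 1.73e-11), D2-13B6 versus D2 0.51 (SE 0.052) and the background contrast -2.22 (SE 0.034). Scaled to ES markers, these were 0.65, 0.26 and -1.71, all called.

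Zfp993 had 14.6, 13.8 and 12.1 CPM in B6, 25.0, 28.4 and 23.5 in B6-13D2, 3.69, 2.27 and 2.82 in D2-13B6 and 2.70, 3.28 and 2.98 in D2. Its D2-background groups overlapped and its B6-background groups did not. B6-13D2 versus B6 was 0.93 (SE 0.105), D2-13B6 versus D2 -0.04 (SE 0.169, not called) and the background contrast -2.64 (SE 0.093). The pseudogene Znf41-ps, which shares 47.2% of the runs of Zfp993, averaged 49.1, 74.6, 11.1 and 10.7 CPM in B6, B6-13D2, D2-13B6 and D2. As 1 row, the 3 genes of this family gave a background contrast of -2.02 (SE 0.042) and a segment contrast of 0.20 (SE 0.041). That row leaves out Znf41-ps, which also shares 49.8% of the runs of Zfp991.

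In the family of Zfp534, the background contrast ranged widely. Zfp534 had 126, 130.5 and 131 CPM in B6, 138, 128 and 138 in B6-13D2, 25.6, 27.2 and 25.7 in D2-13B6 and 20.9, 18.8 and 22 in D2. The D2-background groups lay far below the B6-background groups, and the B6-background groups overlapped. With the D2 background it fell by 2.51 on the log2 scale (SE 0.036, edgeR adjusted p 3.33e-19), and D2-13B6 versus D2 was 0.36 (SE 0.058). Scaled to ES markers, these were -2.00 and called, and 0.11 and not called, and B6-13D2 versus B6 was -0.13 and called.

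Zfp989 had 45.8, 49.9 and 45.8 CPM in B6, 36.1, 34.9 and 35.2 in B6-13D2, 6.46, 6.70 and 7.99 in D2-13B6 and 5.56, 5.52 and 6.04 in D2. It was lower in B6-13D2 than in B6 in every library, with a log2 fold change of -0.41 (SE 0.058), and the background contrast was -2.69 (SE 0.051). Gm21411, in which no finger was found, averaged 14.5 ± 1.29 CPM in B6, 14.7 ± 0.917 in B6-13D2, 2.21 ± 0.271 in D2-13B6 and 1.71 ± 0.368 in D2, with a background contrast of -2.92 (SE 0.088). Among the 24 members this was the lowest value.

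Zfp987 and Zfp988 belong to the same family. Zfp987 had 107, 119.8 and 119 CPM in B6, 108, 99.7 and 101 in B6-13D2, 124, 121 and 125 in D2-13B6 and 97.5, 100.3 and 122 in D2. D2 replicate 3 reached the D2-13B6 libraries, and B6 overlapped with D2. The background contrast of Zfp987 was 0.07 (SE 0.046, not called) but 0.58 and called with ES marker scaling, and the segment contrast -0.19 (SE 0.046) was called. Its call in B6-13D2 versus B6 (-0.16, edgeR adjusted p 0.041) was lost with RLE size factors, DESeq2 and a mean CPM minimum of 1, and in 7 of 12 fits that each left out 1 library (adjusted p up to 0.140). It was -0.35 and called with ES marker scaling. Zfp988 averaged 112 ± 3.36 CPM in B6, 110.0 ± 0.544 in B6-13D2, 94.6 ± 2.00 in D2-13B6 and 78.9 ± 7.10 in D2, with a background contrast of -0.36 (SE 0.034) that was 0.15 with ES marker scaling. Summed as 1 row, the 6 genes gave a background contrast of -0.85 (SE 0.035) and a segment contrast of -0.16 (SE 0.035). The pseudogene Gm8935 on chromosome 3, which shares 38.0% of the runs of Zfp987, lies outside this sum. It averaged 4.62, 3.90, 1.43 and 1.05 CPM in B6, B6-13D2, D2-13B6 and D2.

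**Figure D3:**
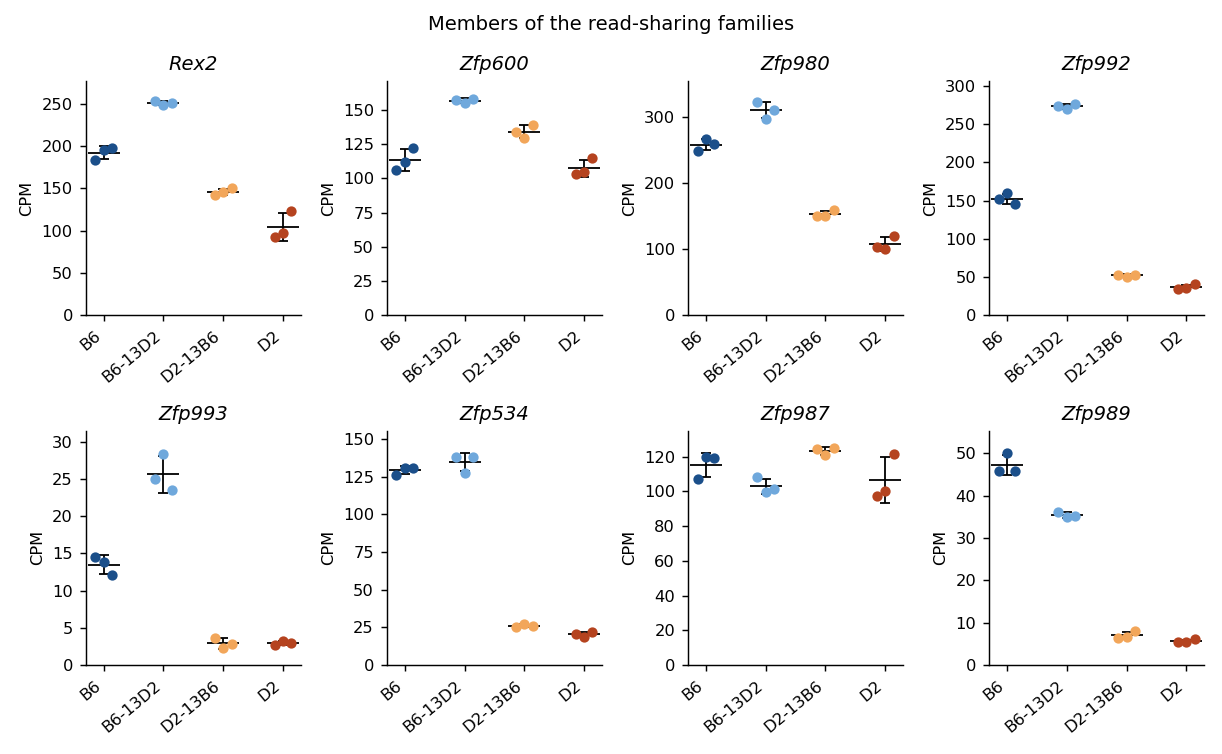
CPM per library (points) with group mean and SD (black) for 8 members of read-sharing families, each on a linear axis from 0. Zfp534, Zfp989, Zfp992 and Zfp993 are several-fold lower in both D2-background groups, while Zfp987 lies between 97.5 and 125 CPM in all 4 groups.

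Zfp984, which shares 13.7% of its runs with Gm13212, averaged 63.9 ± 1.64 CPM in B6, 72.9 ± 1.62 in B6-13D2, 21.6 ± 0.824 in D2-13B6 and 18 ± 1.09 in D2. Its background contrast was -1.79 (SE 0.034), and both congenic lines were above their background strain, by 0.19 (SE 0.043) and 0.27 (SE 0.054). Scaled to ES markers, these were 0.00 and 0.02, and neither was called.

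Zfp990 and Zfp981 share little sequence with other members, 0.509% and 2.76% of their runs. Zfp990 had 79.6, 80.3 and 85.2 CPM in B6, 74.3, 72.7 and 71.3 in B6-13D2, 111, 106 and 113 in D2-13B6 and 82.8, 89.2 and 102 in D2. D2 overlapped with B6, and D2-13B6 was highest. With TMM scaling it was the only finger gene called higher with the D2 background, by 0.38 (SE 0.040), against 0.88 with ES marker scaling, where other finger genes were higher too. D2-13B6 versus D2 was 0.27 (SE 0.055) and B6-13D2 versus B6 -0.17 (SE 0.058), the latter not called with RLE size factors (-0.10), DESeq2, a mean CPM minimum of 1, or without B6 replicate 3 or B6-13D2 replicate 3. With ES marker scaling these were 0.02 and not called, and -0.35 and called. The D2 versus B6 difference of 0.16 was 0.08 and not called without D2 replicate 3. Its call was also lost without B6 replicate 1 (0.14), without B6 replicate 2 (0.14) and with only the libraries compared (0.16), while with ES marker scaling it was 0.69 and called.

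Zfp981 had 85.4, 92.6 and 83.9 CPM in B6, 123, 108 and 114 in B6-13D2, 55.8, 52.2 and 55.8 in D2-13B6 and 36.6, 38.3 and 45.2 in D2. The groups did not overlap and were ordered B6-13D2, B6, D2-13B6, D2. With the D2 background it was lower, at -1.10 (SE 0.046), B6-13D2 versus B6 0.40 (SE 0.062) and D2-13B6 versus D2 0.45 (SE 0.067). Scaled to ES markers, these were -0.60, 0.21 and 0.21, all called.

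Among members without fingers, Gm13128 was higher with the D2 background, where most finger genes were lower. It had 2.12, 2.06 and 1.99 CPM in B6, 1.53, 1.08 and 1.63 in B6-13D2, 62.3, 57.8 and 62.0 in D2-13B6 and 14.5, 14.9 and 15.8 in D2. The D2-13B6 libraries were far above D2, and both were above the B6-background groups. The background contrast was 4.15 (SE 0.067, edgeR adjusted p 1.10e-18), D2-13B6 versus D2 2.02 (SE 0.060) and B6-13D2 versus B6 -0.56 (SE 0.160), which was -0.52 and not called with only the libraries compared and -0.39 and not called without B6-13D2 replicate 2. It shares 40.3% of its runs with Pramef17, just outside the interval, which averaged 0.376 CPM in B6, 0.216 in B6-13D2, 13.8 in D2-13B6 and 3.10 in D2, so their reads may be divided.

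Gm13119 had 1.54, 2.02 and 1.84 CPM in B6, 1.83, 2.26 and 2.05 in B6-13D2, 0.616, 0.638 and 0.637 in D2-13B6 and 2.83, 2.24 and 2.75 in D2. It was lowest in all D2-13B6 libraries, with at most 80.4 counts in any library. D2-13B6 versus D2 was -2.03 (SE 0.203), the lowest value of a member in that comparison, and B6-13D2 versus B6 was 0.18 (SE 0.188, not called). Its call in D2 versus B6 (0.52) was lost with DESeq2, with no filter and without B6 replicate 1, D2 replicate 1 or D2 replicate 3 (edgeR adjusted p up to 0.088), and was 1.05 and called with ES marker scaling, and it shares 5.45% of its runs with other genes.

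Each congenic line was set against the parental strain of its own background, which asks what the exchanged segment does there, along with whatever else separates the lines. In B6-13D2, 16 of 24 members were called, 11 higher and 5 lower, where 58.3% of all genes were called (25.4% higher, 32.9% lower). With RLE size factors 12 were higher and 3 lower, where 59.9% of all genes were called (31.1% higher and 28.8% lower). ES marker scaling gave 8 higher and 9 lower, where 61.5% were called (13.2% higher and 48.3% lower). In D2-13B6, 18 of 24 were called, 17 higher and 1 lower, where 57.3% of all genes were called (27.6% higher and 29.7% lower). ES marker scaling gave 12, 9 higher and 3 lower, where 64.5% of all genes were called (12.8% higher and 51.7% lower).

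A segment effect that holds on both backgrounds would give opposite signs in these comparisons. Of 24 members, 9 were called higher in both congenic lines, among them Rex2, Zfp600, Zfp980, Zfp981, Zfp982 and Zfp992, and 5 lower in B6-13D2 and higher in D2-13B6, namely Zfp985, Zfp987, Zfp989, Zfp990 and Gm13128. Over all genes, 12.4% were called higher in both and 4.31% lower in B6-13D2 and higher in D2-13B6. With ES marker scaling these patterns held 5 members (Rex2, Zfp981, Zfp982, Zfp992 and Gm13212) and 2 members (Zfp985 and Gm13128), and 3.87% and 3.68% of all genes. With RLE size factors or DESeq2, Zfp987 and Zfp990 lost their call in B6-13D2. Leaving out 1 library also ended calls in D2-13B6 versus D2, that of Zfp987 without D2 replicate 2 (0.17) and that of Zfp989 without D2-13B6 replicate 3 (0.21) or D2 replicate 2 (0.27). In the main test a further 2 were higher in B6-13D2 alone, 3 higher and 1 lower in D2-13B6 alone, and 4 in neither. Calls in one comparison alone do not show that the effects differed.

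Congenic minus parental, averaged over backgrounds, tests that difference. It was called for 18 of 24 members, 16 higher and 2 lower, where 64.5% of all genes were called (31.1% higher and 33.4% lower), with a median of 0.23 over members and 0.00 over all genes. With ES marker scaling 15 were called, 9 higher and 6 lower (67.7% of all genes, 12.5% higher and 55.2% lower), with medians of 0.02 and -0.22. By design this contrast is proportional to the segment effect (D2 minus B6 allele) on the B6 background minus that on the D2 background, and it cannot be told apart from anything all congenic libraries share. Column names of congenic and parental libraries differ by a prefix, and a batch that it may stand for holds whole groups.

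**Figure D4:**
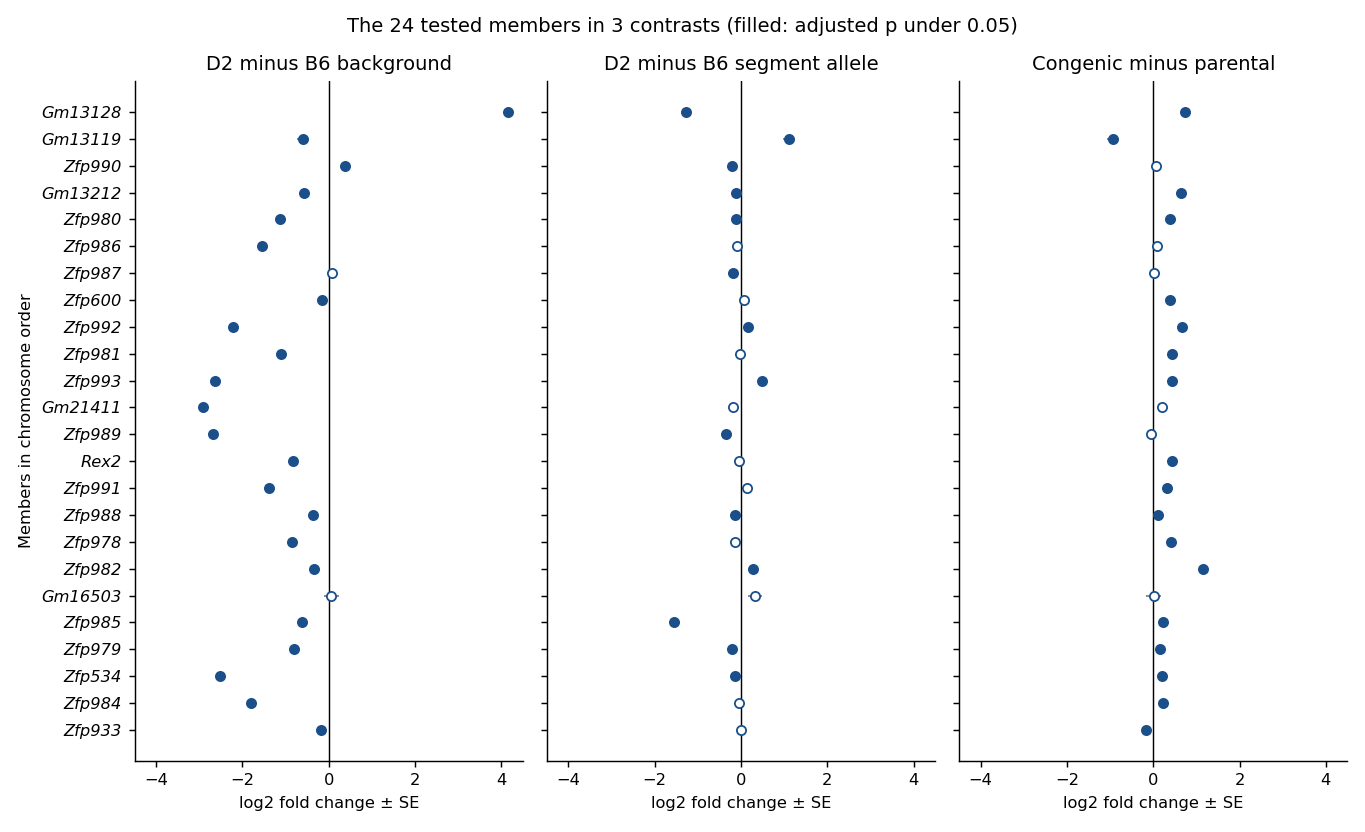
Log2 fold change ± SE (edgeR) of the 24 tested members in chromosome order for the background, segment allele and congenic minus parental contrasts, with filled points for adjusted p under 0.05. Most background values lie below 0, down to -2.92 for Gm21411, Zfp985 has the lowest segment value (-1.54), and Zfp982 the highest congenic value (1.16).

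A list of 22 genes linked to KRAB zinc finger silencing was measured beside the members. Most are cofactors through which these proteins act, and it also holds Zfp809, itself a KRAB zinc finger gene, and the zinc finger factor Yy1. In D2 versus B6, 19 were called, 2 higher (Zfp809 and the heterochromatin protein gene Cbx5) and 17 lower, with a median of -0.35, where 60.0% of all genes were called (29.8% higher and 30.3% lower). In B6-13D2 versus B6 14 were called, 9 higher and 5 lower (58.3% of all genes), and in D2-13B6 versus D2 16, of which 14 were higher and 2 lower (57.3% of all genes). With ES marker scaling 18 were higher and 2 lower in D2 versus B6 (median 0.18), where 72.9% of all genes were higher. That scaling gave 4 higher and 12 lower in B6-13D2 versus B6 (48.3% of all genes lower) and 1 higher and 11 lower in D2-13B6 versus D2 (51.7% of all genes lower). The direction of the list thus turned with the scaling in all 3 comparisons, while the split of all genes turned in D2 versus B6 only. In B6-13D2 versus B6 lower calls stayed the larger share of all genes (32.9% against 25.4% higher in the main test). So they did in D2-13B6 versus D2 (29.7% against 27.6%). Trim28, the corepressor, averaged 1779.7 CPM in B6, 1798 in B6-13D2, 1881 in D2-13B6 and 1830.2 in D2, and was called in none of the 3 in the main test. Setdb1, the H3K9 methyltransferase, averaged 142, 140.2, 127 and 106 CPM in the same order.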

How the data were processed

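The authors deposited expected counts per Ensembl gene ID and library, named as EMASE total counts, and the submitters' processing notes list mm10, Bowtie 1.0.0 and edgeR 3.34.1 with no role for each. Whether D2 reads were aligned to D2 sequence, the strand setting and any filter are not given in the sources used here. Gene positions are from GENCODE M21 by ID (42462 of 43346 IDs found), and every column mapped to a library. Rounded expected counts went into edgeR 4.0.16 (R 4.3.3): filterByExpr with a minimum count of 10, TMM, a quasi-likelihood fit of 4 group means over 12 libraries, and Benjamini-Hochberg adjustment over 17148 genes at 0.05. A standard error is the size of the log2 fold change over the root of its F. Other than the comparisons of each congenic line with its background strain, which share none with each other, contrasts share libraries and do not support each other. The fit was also run on simulated data in which few genes differed, so that run does not bear on the choice of scaling.

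Members, lists and tests were chosen with earlier results of these data known. Members named with values are Rex2, Zfp985, the 12 with the highest mean CPM and, in each of 6 contrasts, the 3 highest and 3 lowest called members whose mean CPM reached 1. The sequence runs came from annotated B6 reference transcripts, and proteins were not analysed here. Alternatives changed the tool (DESeq2 1.42.0), the size factors (RLE), the filter (none, or a mean CPM of 1), the fold required (1 on the log2 scale), the model (replicate block) and the libraries (those compared, or all but 1). ES marker scaling and family sums were added after seeing the data.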

Additional observations from a re-analysis of the deposited data

Results flagged for a closer look

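For 16 named members the response to the chromosome 13 segment was not the same on both backgrounds by the edgeR contrast of congenic minus parental lines, which is proportional to that difference. The log2 values were above 0 for Zfp982 (1.16), Gm13128 (0.73), Zfp992 (0.67), Zfp993 (0.44), Rex2 (0.43), Zfp981 (0.42), Zfp978 (0.42), Zfp980 (0.39), Zfp600 (0.39), Zfp985 (0.24), Zfp984 (0.23), Zfp534 (0.21), Zfp979 (0.16) and Zfp988 (0.12). They were below 0 for Gm13119 (-0.92) and Zfp933 (-0.18). The same contrast was called for 64.5% of all genes, and with ES marker scaling Zfp993 (0.22), Zfp985 (0.02), Zfp984 (0.01), Zfp979 (-0.052) and Zfp534 (-0.0077) were not called and Zfp988 (-0.10) was called with the other sign. Anything all congenic libraries share, such as a batch, cannot be told apart from this difference.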

How the results depend on the processing

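Requiring a log2 fold change of 1 or more in size left 13 called members in D2 versus B6, 2 in B6-13D2 versus B6, 3 in D2-13B6 versus D2, 11 for background, 3 for segment allele and 1 for congenic minus parental, against 11.3%, 14.5%, 8.96%, 14.9%, 2.36% and 10.1% of all genes. No other setting moved a total of called members by over 1.5 times, but counts in 1 direction moved by more. In D2 versus B6 the 3 higher became 1 without B6 replicate 1 or D2 replicate 3. In B6-13D2 versus B6 the 5 lower became 3 with RLE, DESeq2 or a mean CPM minimum of 1, and without B6 replicate 3, B6-13D2 replicate 2 or B6-13D2 replicate 3. A single lower call in D2-13B6 versus D2 became 2 with that minimum or without D2-13B6 replicate 2, and the 2 lower for congenic minus parental became 1 with DESeq2 or no filter. ES marker scaling gave 8 higher (from 3), 9 lower (from 5), 9 higher and 3 lower (from 17 and 1), 7 higher for background (from 2) and 9 higher and 6 lower for congenic minus parental (from 16 and 2). Leaving out each library in turn gave 18 to 20, 14 to 16, 17 to 20, 22 in every case, 12 to 16 and 18 to 20 called members in the same order, and DESeq2 gave 18, 15, 18, 21, 14 and 17. With the replicate number as a block the counts were 19, 16, 19, 22, 15 and 19. Same-numbered libraries of different groups had correlations of deviations from -0.161 to 0.0981 over 18 pairs, 0 of them over 0.1, so the numbers showed no pairing. No alternative but 1 turned the direction of a named member called in either setting. Scaling to ES cell markers did so in 16 cases. In D2 versus B6 the values were 0.42 for Zfp987, 0.45 for Zfp600, 0.033 for Zfp988, 0.46 for Zfp982 and 0.37 for Zfp933. In B6-13D2 versus B6, Zfp534 was -0.13, and in D2-13B6 versus D2, Zfp987 was -0.029. For background, Zfp600 was 0.35, Zfp988 0.15, Zfp982 0.15 and Zfp933 0.33. For congenic minus parental, Zfp990 was -0.16, Zfp987 -0.19, Zfp988 -0.10, Zfp979 -0.052 and Zfp534 -0.0077. This scaling moves the genes of a contrast by about the same amount. Levels of family members rest on how reads were divided, members under a few counts could not be tested, and the cause of other changes was not tested.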

Other observations

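A pseudogene and a noncoding RNA of the interval share sequence or an exon with members. The pseudogene Gm13147, which shares runs of 150 bases with Zfp984 and Gm13212, averaged 68.3 CPM ± 1.99 in B6, 72.4 ± 0.855 in B6-13D2, 45.0 ± 1.66 in D2-13B6 and 31.9 ± 1.85 in D2. The long noncoding RNA Gm20707, whose exon overlaps Zfp984, averaged 10.04 CPM ± 1.01, 9.45 ± 0.758, 3.63 ± 0.258 and 2.97 ± 0.513 in the same order. How far these values hold reads of the overlapping or similar members was not tested.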
